A study of Mus musculus with 10 samples.

Results

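The 32 genes described here carry out glycolysis, the breakdown of glucose to pyruvate and lactate, or belong to the response to low oxygen. They were taken by symbol, as spots annotated to exactly 1 of the 32 symbols. That rule uses no measured value, but the genes were chosen with earlier results of these data known. Of the 32, 26 were measured, by 38 spots, among the 14365 genes tested. Gpi1, Aldoc, Gapdh, Eno1, Ankrd37 and Ndrg1 were not analysed here. A gene with more than 1 spot, as 9 of the 26 had, is the mean of its spots, and all 26 had a value on every array.

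The samples were Sirt6 knockout (KO, Sirt6-/-) and wild-type (WT) mouse RNA, and the design follows both genotypes through TNF-alpha treatment. The KO samples comprised 2 arrays without treatment (0 h, a and b) and 1 array each after 1.5, 6 and 24 h of TNF-alpha, and the WT samples comprised the same 5 arrays. Each array compared the sample, labelled with Cy5, with a universal mouse reference RNA, labelled with Cy3. The cell type, strain, age, dose and type of knockout allele are not stated by any source at hand, nor whether a and b were separate cultures, so errors and p-values reflect the spread of these samples alone, and that spread may be technical. All values are log2 ratios of sample to reference, with the median over genes of each array set to 0; the base and the direction are read from the values and the dyes, since neither is stated. The number of arrays limits the precision.

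Glycolysis takes up glucose through transporters, phosphorylates and splits it, and ends in pyruvate, which either enters the mitochondria or is reduced to lactate. The transcription factor HIF, whose oxygen-regulated subunit is Hif1a, raises many of these genes when oxygen is low, and prolyl hydroxylases such as Egln1 mark Hif1a for destruction when oxygen is present. Sirt6 is a chromatin-bound deacetylase known in mouse cells as a repressor of Hif1a target genes in glycolysis, and of genes activated by NF-kB, the factor that TNF-alpha switches on. NF-kB is also known to drive transcription of Hif1a.

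Several facts of the whole series bear on these genes. In time order from 0 to 24 h, Sirt6 itself lay at -1.05 and -0.82, then -0.76, -1.16 and -0.05 in KO, against a range of -0.16 to 0.07 on the WT arrays. The library labelled KO at 24 h thus lay within the WT range for the deleted gene's own transcript, although the place of the Sirt6 spots relative to the deleted part is not stated. This touches every value drawn from that array. Ccl2, a chemokine induced by TNF-alpha, lay between 2.32 and 2.76 on the treated KO arrays and between 2.11 and 2.77 on the treated WT arrays, and below 0 on every 0 h array. The spread of the ratios differed between arrays: the median absolute deviation over genes was 0.58 and 0.69 on the KO 0 h arrays, against 0.36 and 0.45 on the WT 0 h arrays. The 14 striated muscle markers were all positive in the genotype average (KO minus WT over the 4 times), and their summed log2 ratio ran from 4.70 to 11.1 on the KO arrays and from 0.62 to 2.35 on the WT arrays. The 16 measured cell cycle genes were all negative in it, with sums of -20.7 to -11.5 in KO and of -12.0 to -7.90 in WT. In these bulk samples fewer cells of a type and less RNA per cell cannot be told apart, and the part of these markers in the results below was not tested.

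None of the 26 genes passed the threshold, an adjusted p under 0.05 over all 14365 genes (limma, Benjamini-Hochberg), in any of the 8 comparisons made. Over all genes the share past it was 0% for both genotype comparisons and for the difference in response at 1.5 h. For the response to TNF-alpha it was 0.00696% upward at 1.5 h, 0.00696% in each direction at 6 h and 0.0139% upward at 24 h, and for the difference in response it was 0.00696% at 6 h and 0.0278% at 24 h, all negative. The comparisons were KO minus WT over all times, KO minus WT at 0 h, the response to TNF-alpha at 1.5, 6 and 24 h averaged over KO and WT, and the KO response minus the WT response at those times. What follows therefore gives the values themselves. On simulated data a log2 difference of 1 between the genotypes at 0 h was recovered for 0% of the changed genes and one of 2 for 98.5%, and a log2 difference of 2 between the responses at 6 h was recovered for 0%. Recovery of a log2 change of 1 was better in the genotype average, at 88%, and in the responses to TNF-alpha, at 43 to 54.5%. The simulated data held 200 changed genes. With fewer changed genes the same adjusted threshold asks for a smaller p, so these shares need not hold for the arrays. Sirt6 itself did not pass in the genotype average, at -0.70 (adjusted p = 0.428 by limma).

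Most of these genes lay below the reference. Relative to the median gene, 14 of the 26 were negative on all 10 arrays, 2 were positive on all 10, and 10 had both signs. The shares of all genes with these patterns are not given here, so the counts are not read as particular to these genes. The lowest was Pdk1, a kinase that inhibits pyruvate dehydrogenase inside the mitochondria, between -3.43 and -1.76. Next came Egln3, a hydroxylase that HIF itself induces, between -2.32 and -1.56. The 2 genes above the reference throughout were Adm, which encodes the vasodilator peptide adrenomedullin, between 0.66 and 1.20, and Pdk4, a kinase of the same family as Pdk1 that is induced on fasting, between 0.08 and 1.70. These are ratios for each gene against its own level in the reference, so they do not rank the genes by abundance.

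**Figure D1:**
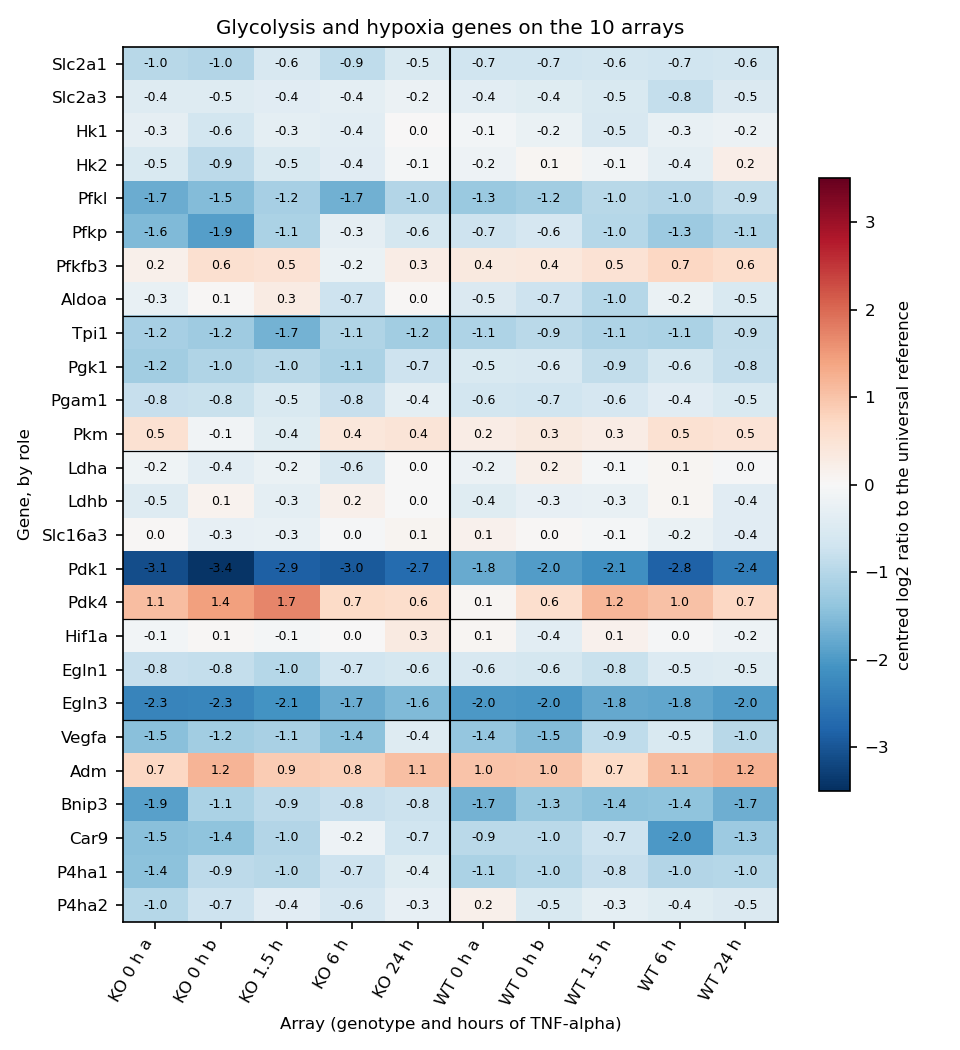
Centred log2 ratio of sample to reference for the 26 measured genes (rows, grouped by role from glucose uptake at the top to other HIF targets at the bottom) on the 5 KO arrays, left of the line, and the 5 WT arrays, right of it. Pdk1 and Egln3 are the deepest blue rows, and Pdk1 is paler on the WT 0 h arrays (-1.76 and -1.97) than on the KO 0 h arrays (-3.10 and -3.43).

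HIF binds DNA at a short core, ACGTG or GCGTG, and the windows around the gene starts were searched for both, on both strands. Of the 26 measured genes 25 matched the RefSeq promoter table by symbol, with 33 windows of 300 bases (250 before to 50 after a start). A core was present in 27 of the 33 windows (81.8%), against 43.8% of all 32851 windows. The windows of these genes had a median GC content of 64.7%, against 52.7% for all windows, and GCGTG is itself rich in G and C. Among windows of 60 to 70% GC, the core was present in 16 of 18 (88.9%) for these genes and in 68% of all 6703, ACGTG alone in 66.7% against 27.3%, and GCGTG alone in 50% against 56.9%. ACGTG is also contained in CACGTG, the letters bound by other factors, which was in 4 of the 33 windows (12.1%) against 7.15% of all. A match is a run of letters and not a shown site, and no match says only that these letters are absent from the window.

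Windows are shown for the genes with the largest differences between the genotypes or their responses, Pdk1, Pfkp and Car9, and for Ldha, the lactate dehydrogenase subunit often used as a HIF target. For Pdk1 and Ldha, which have 2 windows each, the one with more cores is shown. The sequences are from RefSeq, build GRCm38.p6, 5′ to 3′ on the strand of the gene, with the cores in capitals; a core on the opposite strand reads CACGT or CACGC.
Pdk1 (chr2:71872974-71873273, + strand, 2 GCGTG): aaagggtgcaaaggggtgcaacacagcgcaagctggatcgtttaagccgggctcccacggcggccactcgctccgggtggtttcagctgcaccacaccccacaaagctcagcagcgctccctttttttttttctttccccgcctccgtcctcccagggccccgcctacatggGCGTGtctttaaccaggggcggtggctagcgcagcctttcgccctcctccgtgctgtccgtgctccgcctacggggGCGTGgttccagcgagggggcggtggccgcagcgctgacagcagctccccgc
Pfkp (chr13:6648722-6649021, - strand, 4 GCGTG): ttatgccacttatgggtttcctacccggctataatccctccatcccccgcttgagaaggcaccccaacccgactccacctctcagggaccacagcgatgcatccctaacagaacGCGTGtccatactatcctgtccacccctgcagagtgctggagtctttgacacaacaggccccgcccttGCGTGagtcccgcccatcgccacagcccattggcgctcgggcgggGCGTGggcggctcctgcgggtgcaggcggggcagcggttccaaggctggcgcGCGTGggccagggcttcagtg
Car9 (chr4:43506776-43507075, + strand, 1 ACGTG): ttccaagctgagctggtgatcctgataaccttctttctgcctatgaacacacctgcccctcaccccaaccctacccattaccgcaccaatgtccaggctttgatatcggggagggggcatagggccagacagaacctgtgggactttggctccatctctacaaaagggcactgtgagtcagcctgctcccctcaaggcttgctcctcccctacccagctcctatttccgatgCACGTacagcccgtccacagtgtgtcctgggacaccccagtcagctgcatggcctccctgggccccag
Ldha (chr7:46845554-46845853, + strand, 5 ACGTG counting both strands of its 2 CACGTG, and 2 GCGTG): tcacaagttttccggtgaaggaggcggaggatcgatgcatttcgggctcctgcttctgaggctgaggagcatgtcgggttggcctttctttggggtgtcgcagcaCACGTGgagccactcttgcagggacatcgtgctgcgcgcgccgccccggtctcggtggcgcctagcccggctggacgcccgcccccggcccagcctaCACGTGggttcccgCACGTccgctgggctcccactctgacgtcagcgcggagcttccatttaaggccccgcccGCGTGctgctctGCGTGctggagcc

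The first comparison asked whether loss of Sirt6 moved these genes without TNF-alpha. At 0 h, 19 of the 26 were negative in KO minus WT (73.1%, against 53.8% of all genes), with a median log2 difference of -0.20 against -0.04 over all genes. Both KO arrays lay below both WT arrays for 14 of the 26 (53.8%, against 28.8% of all genes), and above both for 2 (7.69%, against 24% of all). At an unadjusted p under 0.05, 5 were negative (19.2%, against 9.5% of all genes) and 1 positive (3.85%, against 7.66%). This direction depended on the scaling. With the arrays brought to equal spread 15 of the 26 were positive and 11 negative, with a median of 0.08, and with quantile normalization the counts were also 15 and 11, with a median of 0.15. The genes lay mostly below the reference, and the KO 0 h arrays had the widest ratios; the part of this in the result is given only by those rescaled values.

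**Figure D2:**
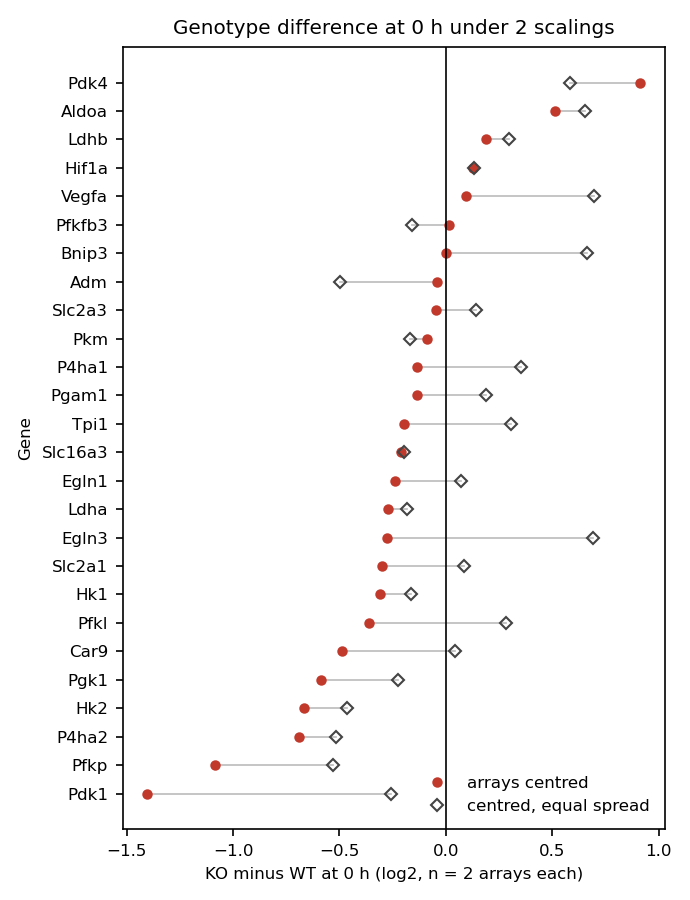
KO minus WT at 0 h (log2, 2 arrays each) for the 26 genes, with each array centred on its median (filled circles) and with the arrays also brought to equal spread (open diamonds). The Pdk1 value is -1.40 with centring alone and -0.26 with equal spread, that of Pfkp is -1.08 and -0.53, and 15 of the 26 diamonds lie right of 0.

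Pdk1 had the largest difference at 0 h. It lay at -3.10 and -3.43 on the KO arrays, against -1.76 and -1.97 on the WT arrays, a log2 difference of -1.40 (SE 0.22, n = 2 each, 2.64-fold) with an adjusted p of 0.187 by limma over all genes. The KO arrays were below the WT arrays without overlap. After TNF-alpha Pdk1 lay at -2.85, -2.95 and -2.68 at 1.5, 6 and 24 h in KO, against -2.14, -2.83 and -2.44 in WT. The KO value was below the WT value at all 4 times, by 0.12 at 6 h and 0.24 at 24 h. The genotype average was -0.78 (SE 0.23, adjusted p = 0.428 by limma), and -0.29 with the arrays at equal spread. Pdk4 stood on the other side at 0 h, at 1.07 and 1.43 in KO against 0.08 and 0.60 in WT, a difference of 0.91 (SE 0.27, n = 2 each, adjusted p = 0.223 by limma). It kept its sign under every alternative tried at 0 h, between 0.47 and 1.17.

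Among the 8 measured genes of glucose uptake and the upper steps, 6 were negative at 0 h. Hk2, the inducible hexokinase that traps glucose in the cell, lay at -0.55 and -0.91 in KO, against -0.18 and 0.07 in WT. Its difference was -0.67 (SE 0.23, n = 2 each, adjusted p = 0.259 by limma) and became 0.02 once the trend along the spots was removed. Pfkl, the liver-type subunit of phosphofructokinase, lay at -1.74 and -1.51 in KO and at -1.30 and -1.22 in WT. The KO value of Hk2 and of Pfkl was below the WT value at all 4 times. Slc2a1, the basal glucose transporter, lay at -0.98 and -1.03 in KO against -0.71 on both WT arrays. The 0 h difference of Pfkl, -0.36, was 0.28 with the arrays at equal spread and 0.41 with quantile normalization, and that of Slc2a1, -0.30, was 0.09 and 0.14. Aldoa, an aldolase, lay on the other side, at -0.26 and 0.05 in KO against -0.52 and -0.71 in WT, a difference of 0.51 (SE 0.22) that was -0.18 once the trend along the spots was removed.

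The other genes of the upper steps, Slc2a3, a high-affinity glucose transporter, Hk1, the hexokinase found in most cells, and Pfkfb3, which makes the activator of phosphofructokinase, had differences of -0.05, -0.31 and 0.02 at 0 h.

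Pfkp, the platelet-type subunit of phosphofructokinase, differed in size and in direction between its 4 spots. The mean of the 4 lay at -1.56 and -1.92 in KO at 0 h, against -0.72 and -0.59 in WT, a difference of -1.08 (SE 0.22, n = 2 each, adjusted p = 0.188 by limma). The spot of lowest mean lay at -4.05 and -5.77 in KO and at -1.48 and -1.13 in WT. Without that spot Pfkp lay at -0.73 and -0.63 in KO at 0 h, against -0.47 and -0.41 in WT, and the difference was -0.24 (SE 0.19, adjusted p = 0.534 by limma). The spot of highest mean did not lie lower in KO at 0 h. It was at 0.02 and 0.28 in KO against 0.04 and -0.23 in WT, and these pairs overlapped. The spots are annotated to 1 gene, and which transcript each reads is not stated.

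**Figure D3:**
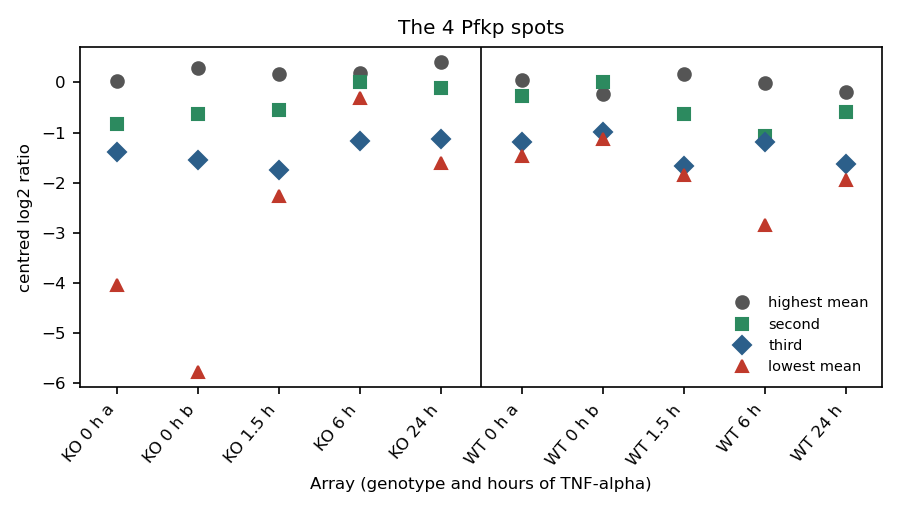
Centred log2 ratio of the 4 spots annotated to Pfkp on the KO arrays (left of the line) and the WT arrays (right). The spot of lowest mean, shown as triangles, moves between -5.77 on a KO 0 h array and -0.31 on the KO 6 h array, whereas the spot of highest mean stays between -0.23 and 0.40.

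The 4 measured enzymes of the lower steps were all negative at 0 h, between -0.59 and -0.09, and in the genotype average, between -0.33 and -0.09. Pgk1, which makes the first ATP of the pathway, lay at -1.22 and -1.04 in KO against -0.53 and -0.56 in WT, a difference of -0.59 (SE 0.19, n = 2 each, adjusted p = 0.249 by limma). Once the trend along the spots was removed it was 0.07. Each of the 4 signs at 0 h turned under at least 1 alternative. Tpi1, triose phosphate isomerase, was at -0.20, Pgam1, phosphoglycerate mutase, at -0.14, and Pkm, pyruvate kinase, at -0.09. The genotypes overlapped on both Tpi1 spots. One lay at -1.23 and -1.07 in KO against -1.04 and -1.32 in WT, and the other at -1.10 and -1.42 against -1.11 and -0.55. The highest values under the alternatives were 0.41 for Tpi1 and 0.23 for Pgam1, both with quantile normalization, and 0.24 for Pkm, without KO 0 h array b. The lactate dehydrogenase genes stood apart from each other, with Ldha at -0.27 (SE 0.23) and Ldhb at 0.19 (SE 0.26), and both pairs overlapped between the genotypes. Slc16a3, the exporter of lactate, had -0.21 (SE 0.21).

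Hif1a itself lay at -0.08 and 0.05 in KO at 0 h, against 0.08 and -0.37 in WT, and the pairs overlapped. Its genotype average was 0.12. The hydroxylases Egln1 and Egln3 had differences of -0.24 and -0.28 at 0 h, and for both the KO pair lay below the WT pair. The 3 spots of Egln1 did not share this direction. One lay higher in KO, at -0.59 and -0.12 against -0.63 and -0.91 in WT. The others lay lower in KO, at -0.92 and -0.88 against -0.48 and -0.63, and at -0.93 and -1.49 against -0.54 and -0.29. With the arrays at equal spread the Egln3 value was 0.69. Of the other HIF targets, P4ha2, a collagen prolyl hydroxylase, had the largest difference at 0 h, -0.69, with WT arrays at 0.19 and -0.53 that differed from each other by more than that. Car9, a carbonic anhydrase at the cell surface that responds strongly to low oxygen, lay at -1.45 and -1.42 in KO against -0.94 and -0.96 in WT, a difference of -0.49 (SE 0.19, adjusted p = 0.283 by limma) that became 0.04 with arrays at equal spread. Its 2 spots did not share this difference. One lay at -1.54 and -2.11 in KO against -1.13 and -0.68 in WT (-0.92), and the other at -1.36 and -0.73 in KO against -0.75 and -1.24 in WT (-0.05), where the pairs overlapped. Within each genotype the spots moved in opposite directions between arrays a and b, so the means of the spots lie closer together than either spot does. Vegfa, the endothelial growth factor, and Bnip3, a mitophagy receptor, had overlapping pairs.

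Over all times, 17 of the 26 were negative in the genotype average (65.4%, against 54.4% of all genes), with a median of -0.09 against -0.03. With the arrays at equal spread 11 were negative. At an unadjusted p under 0.05, 3 were negative (11.5%, against 5.45% of all genes), namely Pdk1, Hk2 and Pfkl, and 0 positive (against 4.23%). None of the 26 had its 5 KO arrays entirely above or below its 5 WT arrays, which held for 0.961% and 1.28% of all genes. Under other scalings Slc2a3 lay higher in KO without overlap (equal spread and quantile normalization), Egln1 lower (no centring) and Pfkfb3 lower (trend along the spots removed). The shares of all genes under those scalings are not given here, so no result is read from these genes. The KO value was below the WT value at all 4 times for 5 (19.2%, against 9.05% of all genes), which were Hk2, Pfkl, Pkm, Pdk1 and Egln1, and above it for Bnip3 alone (3.85%, against 5.97%). The spots of Egln1 did not share that direction at 0 h, as given above. Neither spot of Pkm held it at all 4 times. One lay at 0.65 in KO against 0.29 in WT at 24 h, and the other at 0.53 against 0.44 at 6 h. In time order the median KO minus WT was -0.20, -0.14, -0.14 and 0.19, and at 24 h, where the KO array has WT-like Sirt6, 17 of the 26 were positive. Of all 14365 genes 7382 were positive at 24 h. Over all genes the medians at the 4 times lay between -0.05 and 0.02.

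The summed log2 ratio of the 26 genes was taken on each array. In time order it was -20.7 and -18.8, then -15.6, -15.6 and -9.42 in KO. In WT it was -14.0 and -14.1, then -13.9, -14.0 and -14.2. With each array centred, the KO arrays thus lay below the WT range up to 6 h and above it on the library labelled KO at 24 h. With the arrays at equal spread this order was not kept: the sums were -17.5 and -13.4, then -14.8, -18.4 and -9.33 in KO, against -19.0 and -15.5, then -19.2, -13.1 and -13.4 in WT. All KO arrays but that of 24 h then lay within the WT range. The cell cycle sum in KO was likewise highest on that array, at -11.5, and its part in the result was not tested.

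The second question was the response to TNF-alpha. Averaged over KO and WT, 16 of the 26 were positive at 1.5 h (61.5%, against 51.6% of all genes), 18 at 6 h (69.2%, against 53.7%) and 24 at 24 h (92.3%, against 55.6%). The medians were 0.09, 0.06 and 0.16, against 0.01, 0.02 and 0.04 over all genes. The 3 responses share the 0 h arrays. The majorities at 1.5 and 6 h depended on the scaling, with 11 positive at 1.5 h and 13 at 6 h when the arrays had equal spread, and 12 and 13 with quantile normalization. At an unadjusted p under 0.05 none was called at 1.5 h (against 1.22% of all genes upward and 2.51% downward) or at 6 h (against 1.22% and 1.66%). At 24 h 2 were called upward, Vegfa and Pfkl (7.69%, against 3.88% of all genes), and none downward (against 3.2%). Within the genotypes, at 24 h, in KO 23 of 26 were positive (median 0.42), against 8053 of all 14365 genes (median 0.08). In WT 14 of 26 were positive (median 0.05), against 7355 of all 14365 genes (median 0.01). The median of the 26 in the averaged response at 24 h was 0.08 without the KO library of that time. Without the WT 24 h array it was 0.35. With the arrays at equal spread 23 of the 26 were positive at 24 h, with quantile normalization 21 and without centring 19.

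Vegfa had the largest response at 24 h, 0.68 (SE 0.28, 1.60-fold, adjusted p = 0.698 by limma). In time order it lay at -1.45 and -1.22, then -1.14, -1.43 and -0.44 in KO, and at -1.35 and -1.51, then -0.88, -0.52 and -0.97 in WT. Every treated WT array lay above both WT 0 h arrays, whereas in KO the 6 h array lay within the 0 h pair. Pfkl had 0.49 (SE 0.18, adjusted p = 0.659 by limma). Of the 26, 3 lay above their 0 h mean in both genotypes at all 3 times (11.5%, against 4.25% of all genes): Slc2a1, Egln3 and P4ha1, a subunit of the collagen prolyl hydroxylase. None lay below it throughout (against 3.92% of all genes). In time order the rises of Slc2a1 were 0.07, 0.02 and 0.06 in WT, against 0.43, 0.11 and 0.48 in KO. Those of P4ha1 were 0.24, 0.01 and 0.04 in WT, against 0.22, 0.45 and 0.74 in KO. The P4ha1 values at 6 and 24 h in WT and at 1.5 h in KO lay within their 0 h pairs. In time order Egln3 lay at -2.32 and -2.29, then -2.08, -1.73 and -1.56 in KO, and at -2.02 and -2.03, then -1.79, -1.81 and -1.96 in WT. Pdk4 had the largest response at 1.5 h, 0.64, with 1.70 in KO and 1.16 in WT at that time against 0 h pairs of 1.07 and 1.43 and of 0.08 and 0.60. It was at -0.14 at 24 h. Hif1a had 0.12, 0.06 and 0.15 at the 3 times (SE 0.21 each).

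The third question, that of the design, was whether the response differed between the genotypes. The KO response minus the WT response was positive for 17 of 26 at 1.5 h (65.4%, against 53.6% of all genes), 15 at 6 h (57.7%, against 48.1%) and 22 at 24 h (84.6%, against 53.3%). The medians were 0.17, 0.10 and 0.36, against 0.04, -0.03 and 0.06 over all genes. With the arrays at equal spread the positive counts were 15, 8 and 16, and the 6 h median turned to -0.38. At an unadjusted p under 0.05, 1 was positive at 1.5 h (3.85%, against 2.23% of all genes), 3 at 6 h (11.5%, against 7.57%) and 3 at 24 h (11.5%, against 7.46%). In the other direction there were 4 at 6 h (15.4%, against 6.29%) and none at 1.5 or 24 h (against 1.49% and 5.68%). These comparisons rest on 1 treated array per genotype, assumed to vary like the 0 h pairs, and those at 24 h on the library with Sirt6 in the WT range.

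**Figure D4:**
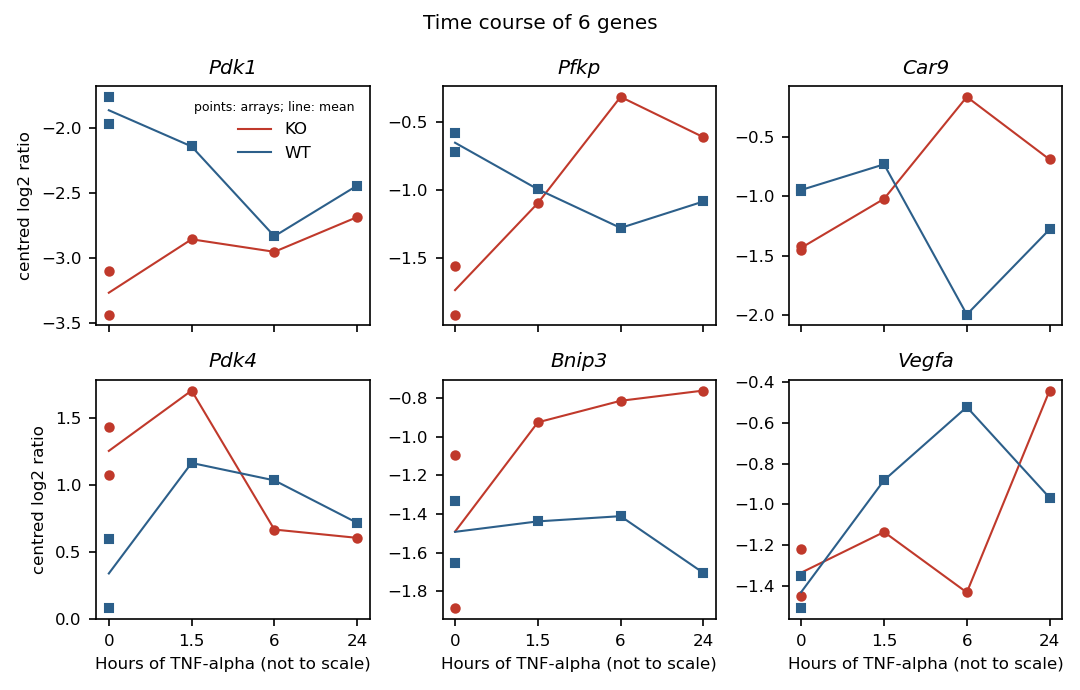
Centred log2 ratio by hours of TNF-alpha for 6 genes in KO (red circles) and WT (blue squares); each point is 1 array and each line joins the group means, on a time axis that is not to scale. Car9 and Pfkp lie lower in KO at 0 h and higher at 6 h, with Car9 at -0.17 in KO and -2.00 in WT at 6 h, and Pdk1 in WT approaches the KO values at 6 h.

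Car9 had the largest difference in response, 2.32 at 6 h (SE 0.32, adjusted p = 0.152 by limma). In time order it lay at -1.45 and -1.42, then -1.02, -0.17 and -0.69 in KO, and at -0.94 and -0.96, then -0.73, -2.00 and -1.28 in WT. The KO arrays thus lay above their 0 h pair at every time and the WT array at 6 h far below its own. Both spots showed it at 6 h, with 0.15 and -0.48 in KO against -2.31 and -1.68 in WT. The sign held under every alternative tried, from 1.48 to 2.58, and the adjusted p by limma was 0.00623 without KO 0 h array a and 0.0155 without array b, where the spread comes from the WT pair alone. Without array a 18% of all genes passed at 6 h (6 of the 26, 23.1%), and without array b 5.35% (2 of the 26, 7.69%). The small spread of Car9 between the WT 0 h arrays is that of the mean of its spots, given above.

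Pfkp had 2.05 at 6 h (SE 0.38, adjusted p = 0.193 by limma) and 1.56 at 24 h (SE 0.38, adjusted p = 0.270). Without the spot of lowest mean these were 0.68 and 0.76 (SE 0.33 each, adjusted p = 0.431 and 0.412 by limma). Pdk1 had 1.28 at 6 h (SE 0.38, adjusted p = 0.290 by limma) and 1.16 at 24 h, and with the arrays at equal spread -0.59 and -0.09. In WT it stood 0.97 below its 0 h mean at 6 h, and in KO 0.31 above. There were 4 genes of negative sign at an unadjusted p under 0.05 at 6 h. Pdk4 had -1.28 (SE 0.47), Aldoa -1.02 (SE 0.38), Vegfa -1.01 (SE 0.36) and Pfkfb3 -0.99 (SE 0.38), each with an adjusted p between 0.327 and 0.350 by limma. Pfkfb3 lay at -0.24 in KO at 6 h, the lowest of its 10 arrays, and at 0.73 in WT, the highest. Aldoa lay at -0.73 in KO and -0.22 in WT at 6 h, the reverse of their order on the 0 h arrays, and once the trend along the spots was removed its value was -0.14.

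Bnip3 was the only one of the 26 above WT at all 4 times in KO. The difference at 0 h was 0.0013, and the pairs overlapped, at -1.89 and -1.09 in KO and -1.65 and -1.33 in WT. At 1.5, 6 and 24 h it lay at -0.92, -0.81 and -0.76 in KO, against -1.44, -1.41 and -1.71 in WT. The genotype average was 0.41 (SE 0.21, limma) and its sign held under every alternative tried, from 0.28 to 0.75.

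Other genes of these pathways, from lists drawn up with earlier results of these data known, gave no call over all genes either. In the genotype average 13 of 23 measured genes of other glycolysis and glucose handling were positive (median 0.04), 9 of 16 of the HIF machinery (0.01), 19 of 36 other HIF targets (0.01) and 11 of 26 of pyruvate entry and the TCA cycle (-0.04). At 24 h of TNF-alpha the positive counts were 11 of 23, 10 of 16, 23 of 36 and 17 of 26. Eno3, the muscle enolase, had the largest genotype average among the other glycolytic genes of 1 sign at all 4 times, 0.73 (SE 0.17, adjusted p = 0.392 by limma). It lay at 1.20 and 0.68 at 0 h, 1.07, 0.91 and 1.21 in KO, against 0.49 and 0.30, 0.27, 0.46 and -0.08 in WT, and the genotypes did not overlap. The striated muscle markers given above had the same sign, and their part in this result was not tested. Higd1a, a mitochondrial protein induced by low oxygen, had 0.66 (SE 0.12, adjusted p = 0.357 by limma). It lay between -1.32 and -0.93 in KO and between -1.93 and -1.72 in WT without overlap. Of all genes 0.961% lay higher in KO without overlap. Eno3 and Higd1a were named for a large genotype average of 1 sign at all 4 times, so their lack of overlap is not a result. In the HIF machinery Cited2, which competes with HIF for its coactivator, had 0.38 and Os9 0.33. Both were taken for having 1 sign at all 4 times, so that trait is not a result. Hmox1, heme oxygenase, had the largest mean response to TNF-alpha among the other HIF targets, -0.86, which came from WT arrays at -1.23 at 1.5 h and -2.38 at 24 h, against 0.63 and 0.91 in KO at those times.

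The other genes that the rule named in these lists were not called in any comparison. In the genotype average Bpgm had 0.41, Gpd1 -0.36, Ugp2 0.11, Egln2 -0.28, Siah1a 0.18, Loxl2 -0.29, Fam162a -0.22, Cxcl12 0.21, Cs 0.22 and Mpc1 -0.17. The rule took these from genes of 1 sign at all 4 times. In the mean response to TNF-alpha Pfkm had 0.62, Slc2a4 0.44, Hif1an 0.31, Epas1 -0.30, Pdgfb 0.63, Idh3a 0.47 and Pdhb 0.35.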

How the data were processed

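Total RNA of each sample was amplified, labelled with Cy5 and hybridised with a Cy3-labelled universal mouse reference on 1 array per sample, per the labels. The deposited values are 1 log2 ratio per spot. The log base is read from the values, which are too wide for log10, and the direction from the dyes. The authors' background correction, normalization and software are not given in the sources used here. The platform annotation gave 1 gene symbol for 22204 of the 38784 spots, and 36113 were complete across the 10 arrays. Spots that met both conditions were kept, and spots of a gene were averaged. The median over the 14365 genes was then subtracted from each array. Between 36822 and 38556 spots had a value on each array.

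Tests used limma 3.58.1 in R 4.3.3 (lmFit, eBayes, two-sided, Benjamini-Hochberg over all genes, threshold 0.05). An additive model of genotype and time gave the genotype average and the responses to TNF-alpha (5 residual degrees of freedom), and a model with 1 mean per group gave the 0 h difference and the differences in response (2 residual degrees of freedom). The tests were checked on simulated data with 200 changed genes. The genes and all lists were chosen with earlier results of these data known. Besides the 32 genes and the checks Sirt6 and Ccl2, the rule for named genes took from each other list the 4 with the largest genotype average of 1 sign at all 4 times and the 2 with the largest mean response. The letters a and b were not treated as pairs in the models above. The a minus b differences of KO and WT correlated at -0.0053 over genes. That shows no shift shared by the letters, but it cannot show whether the samples were paired. Alternatives covered scaling, probes, spot trend, variance prior, weights, filters, models, block, threshold and leaving out each array.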

Additional observations from a re-analysis of the deposited data

How the results depend on the processing

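The 0 h arrays are the only replicates, so the spread behind the 0 h difference and the differences in response comes from 2 pairs of arrays, and every treated group is 1 array. No signal intensities were used here, so spots near background could not be set aside. The results that moved are given as counts of genes past the threshold over all genes, and as medians of the 26 genes, in log2; the cause of each move was not tested. As the analysis was reported, the counts were 0 for the genotype average, 0 at 0 h, 1, 2 and 2 for the responses at 1.5, 6 and 24 h, and 0, 1 and 4 for the differences in response at those times. At an adjusted p under 0.1 the genotype average gave 1 and the difference in response at 24 h gave 29. With array weights the counts were 2 for the genotype average, 3, 1 and 1 for the responses, and 39 and 47 for the differences at 6 and 24 h. With each probe alone they were 1 and 1 for the responses at 6 and 24 h and 2 and 0 for the differences at 6 and 24 h, with medians of 0.00 for the response at 1.5 h, 0.18 for the difference at 6 h and 0.42 at 24 h. With equal spread of arrays they were 2 for the genotype average, 2 for the response at 1.5 h, and 1 and 48 for the differences at 1.5 and 24 h. The medians were then 0.0292 for the genotype average, 0.0776 at 0 h, -0.0527 and 0.0015 for the responses at 1.5 and 6 h, and 0.0472, -0.38 and 0.14 for the differences. With quantile normalization the counts were 2 for the genotype average and 33 for the difference at 24 h. The medians were then 0.0436 and 0.15 for the genotype comparisons, -0.0131 and -0.00304 for the responses at 1.5 and 6 h, and 0.022, -0.42 and 0.0825 for the differences. Without centring the counts were 1 at 0 h, 1 and 1 for the responses at 6 and 24 h, and 3 and 37 for the differences at 6 and 24 h. The medians were then -0.16 and -0.36 for the genotype comparisons, 0.14 and 0.0899 for the responses at 1.5 and 24 h, and 0.14, 0.36 and 0.56 for the differences, where the median of all genes had itself shifted to -0.20 at 0 h and to 0.23 and 0.26 in the last 2 differences. With only genes of higher variation the counts were 1 and 1 for the responses at 6 and 24 h and 1 for the difference at 24 h. With the other model the responses gave 0, 1 and 5. With the trend in spot order removed the counts were 2 for the genotype average and 3 and 1 for the responses at 1.5 and 6 h, and the medians were -0.18 at 0 h and 0.051 and 0.31 for the differences at 6 and 24 h. With the letters as a replicate block the counts were 1 and 1 for the responses at 6 and 24 h and 0 for the difference at 24 h, and no other count moved, with 0 of the 26 genes past the threshold throughout.

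Leaving out each array in turn gave 0 to 1 gene for the genotype average, 0 to 3264 at 0 h, 0 to 4, 0 to 9 and 1 to 72 for the responses at 1.5, 6 and 24 h, and 0 to 363, 0 to 2581 and 0 to 2004 for the differences. Of the 26 genes, 0 to 4 passed at 0 h, 0 to 6 in the difference at 6 h and 0 to 2 at 24 h, and 0 in the others. These passes came without a KO 0 h array, where the spread comes from the WT pair alone: without array a, Pdk1 (-1.57), Pfkp (-1.26), Hk2 (-0.85) and Pdk4 (1.10) passed at 0 h, and without array b Pdk1 (-1.24). Of all genes 22.7% passed at 0 h without array a and 3.29% without array b. The medians ran from -0.19 to -0.0648 for the genotype average, -0.25 to -0.15 at 0 h, 0.0297 to 0.14, 0.0248 to 0.11 and 0.0762 to 0.35 for the responses, and 0.13 to 0.18, 0.089 to 0.15 and 0.36 to 0.40 for the differences. A difference in response could not be estimated when its own treated array was left out, and the other model was not run for 0 h and the differences, which it does not give. Of the 26 genes, 6 kept their sign under every alternative at 0 h, 14 in the genotype average and 11 in the response at 24 h. Leaving out the spot of lowest mean of Pfkp was chosen after seeing the data.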
